A study of Homo sapiens with 12 samples.

Results

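The genes described here are NCAM1 and 7 other cell adhesion molecules with immunoglobulin-type extracellular domains: NCAM2, L1CAM, NRCAM, ALCAM, BCAM, MCAM and F11R. They were taken by name from a deposited table of 60648 genes, of which 18289 had enough counts to be tested, and 6 of the 8 were among those. NCAM1 was picked from values of these same libraries, so its levels and differences are given below as a description without a test. RNA was sequenced from poly-A selected libraries of HCT116, an established human colon carcinoma line, in 4 groups of 3 libraries. The groups were wild-type (MTHFD2-WT, here WT) and MTHFD2 knock-out (KO) cells, each at an initial harvest, taken just after the knock-out was made, and at a final harvest after 2 months in culture. KO cells came from 1 clone isolated after CRISPR-Cas9 editing, so clone and genotype cannot be told apart, and no other treatment is named for any group. MTHFD2 encodes a mitochondrial enzyme of folate one-carbon metabolism. A group's 3 libraries are called biological replicates in the design text, which does not say whether they came from separate cultures, so p-values measure only the spread between these libraries.

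Adhesion molecules of the immunoglobulin superfamily are membrane proteins that hold neighbouring cells together by binding the same molecule, a relative or the matrix. NCAM1 joins cells through self-binding between facing membranes, signals through fibroblast growth factor receptors and carries polysialic acid, a long sugar chain that weakens its adhesion. It is best known in neurons, muscle, neuroendocrine cells and natural killer cells and is not a typical product of colon epithelium. L1CAM and NRCAM belong to a family that binds ankyrins at the inner membrane. ALCAM binds itself and CD6, BCAM is a laminin receptor, MCAM binds laminin and other ligands of vessel walls, and F11R (JAM-A) is a tight-junction protein.

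Depth differed little, from 38597809 to 40017561 counts per library, and no pair of libraries was identical. Levels are given as CPM, the usual library-size-scaled count, here with TMM factors. MTHFD2 (ENSG00000065911.13) had 413 ± 41.2 CPM (SD, n = 3) in initial WT cells and 137 ± 9.1 CPM in initial KO cells, a level of 33.2%, and 355 ± 32.4 against 137 ± 16.7 CPM at the final harvest, a level of 38.5%. All KO libraries lay below all WT libraries for this gene at each harvest.

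NCAM1 RNA (ENSG00000149294.17, GRCh38 chromosome 11, 112961247 to 113278436, plus strand) was high in KO cells and low in WT cells at both harvests, and moved in opposite directions with time. Initial WT libraries 1, 2 and 3 had 14.7, 10.6 and 13 CPM, from 600, 428 and 521 counts. Final WT libraries had 4.61, 3.49 and 4.06 CPM, from 170, 134 and 157 counts. Every final WT library was below every initial one, and the counts were still far above the floor of 3 counts per library used for undetected genes. The KO libraries had 61.1, 55.9 and 51.1 CPM initially. Their final values were 96.9, 112 and 99.6 CPM. Each KO library was therefore above each WT library, and each final KO library was above each initial one. The group means were 12.8 ± 2.05, 4.06 ± 0.561, 56.0 ± 5.01 and 103 ± 8.1 CPM (SD, n = 3), in the order initial WT cells, final WT cells, initial KO cells and final KO cells.

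Expressed as log2 fold changes, KO cells exceeded WT cells by 2.13 (SE 0.121, 4.39-fold) at the initial harvest and by 4.66 (SE 0.139, 25.4-fold) at the final harvest. Among all 18289 tested genes these fitted increases ranked 54 and 9. Over 2 months the WT level fell by 1.65 on the log2 scale (SE 0.135), to 31.8% of its initial value, while the KO level rose by 0.88 (SE 0.113), to 1.84-fold. The genotype difference widened by 2.53 (SE 0.176) between harvests, and the decline in WT cells made up more of this than the increase in KO cells. In bulk RNA a larger share of NCAM1-positive cells and more NCAM1 RNA in each cell cannot be told apart.

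**Figure D1:**
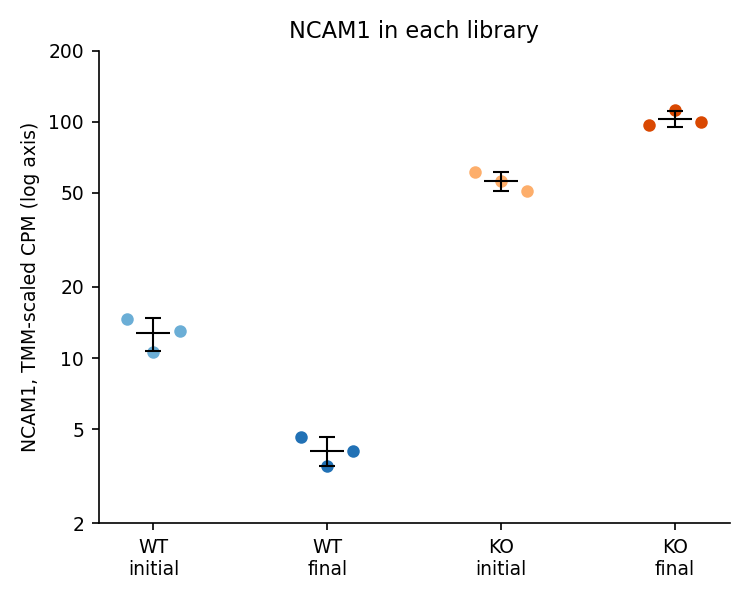
NCAM1 level in each of the 12 libraries, in TMM-scaled CPM on a log axis, by group; points are libraries, bars are means with SD (n = 3). The 4 groups do not overlap: final WT cells lie lowest, at 3.49 to 4.61 CPM, and final KO cells highest, at 96.9 to 112 CPM.

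NCAM2, the closest relative of NCAM1 and a neuronal adhesion molecule, had 1 count in 1 initial WT library and 0 in the other 11 libraries. A count of 0 allows up to 0.075 to 0.0777 CPM at these depths, for counting error only. NRCAM, an ankyrin-binding molecule of axons, had 28 counts over all 12 libraries and at most 5 in any one. Neither gene passed the filter on low counts, and no difference between groups was detectable for them at this depth.

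Promoter sequence was available for 6 of the 8 genes, as RefSeq windows on GRCh38.p14. The 250 bases upstream of the start are shown for the 3 genes other than NCAM1 that were called in a genotype comparison, and for the nearly undetected NCAM2 as a contrast; each reads 5′ to 3′ on the strand of its gene. Capitals mark GGGCGG on either strand, the core of the GC box that Sp1-family factors bind, counted with overlaps, and TGACGTCA, the cAMP response element.
ALCAM (chr3:105366659-105366908, plus strand): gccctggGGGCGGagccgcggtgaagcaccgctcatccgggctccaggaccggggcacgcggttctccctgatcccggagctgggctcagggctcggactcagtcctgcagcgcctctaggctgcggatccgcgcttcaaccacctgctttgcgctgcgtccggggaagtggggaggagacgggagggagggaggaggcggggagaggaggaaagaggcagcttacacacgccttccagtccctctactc
BCAM (chr19:44808809-44809058, plus strand): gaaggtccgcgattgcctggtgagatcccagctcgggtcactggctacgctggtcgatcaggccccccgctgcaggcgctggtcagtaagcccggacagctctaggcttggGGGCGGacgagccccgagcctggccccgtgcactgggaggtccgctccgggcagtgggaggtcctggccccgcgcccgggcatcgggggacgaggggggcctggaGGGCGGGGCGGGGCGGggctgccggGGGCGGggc
MCAM (chr11:119317131-119317380, minus strand): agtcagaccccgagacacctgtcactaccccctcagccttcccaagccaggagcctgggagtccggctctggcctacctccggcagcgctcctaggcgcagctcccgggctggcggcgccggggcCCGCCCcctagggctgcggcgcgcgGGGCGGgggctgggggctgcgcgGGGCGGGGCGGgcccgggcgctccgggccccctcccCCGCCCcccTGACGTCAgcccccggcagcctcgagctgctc
NCAM2 (chr21:21146912-21147161, plus strand): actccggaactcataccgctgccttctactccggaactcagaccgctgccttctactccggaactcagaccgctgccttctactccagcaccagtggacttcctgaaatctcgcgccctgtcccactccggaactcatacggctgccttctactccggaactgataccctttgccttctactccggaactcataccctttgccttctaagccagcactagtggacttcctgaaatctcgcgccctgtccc

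The ALCAM window held 1 GC box and 20 CpG dinucleotides at 68.8% GC, and the BCAM window 5 GC boxes and 24 CpG at 76% GC. The MCAM window held 5 GC boxes, 1 TGACGTCA and 26 CpG at 79.6% GC. In the NCAM2 window there were 14 CpG at 56.4% GC and no match to either motif, which says only that these letters are not in this window. Over all 35116 upstream windows of that length, 42.6% held GGGCGG and 1.6% held TGACGTCA, and the median number of CpG was 11 (quartiles 3 and 23). All 4 windows shown, that of NCAM2 included, were above the median in CpG content, and BCAM and MCAM above the upper quartile. NRCAM, the other nearly undetected member, had 27 CpG and 1 GC box in 233 bases before one of its starts, more CpG than any window shown. The MCAM and NCAM2 windows lie inside the longer spans of these genes in the annotation, which for NCAM2 runs from 20998409 to 21543329. These matches describe sequence and were not tested against expression.

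NCAM1, chosen from these comparisons, is left out of the counts here. At the initial harvest, 2 of the other 5 tested genes were called higher in KO cells, namely ALCAM and MCAM, and none lower. Calls were made at an adjusted p below 0.05 (edgeR's quasi-likelihood test, Benjamini-Hochberg over all tested genes). Over all tested genes 8.55% were called higher and 11.3% lower. At the final harvest 2 of the 5 were called higher, namely ALCAM and BCAM, and none lower, against 8.38% higher and 10.2% lower over all genes. The median log2 fold changes of the 5 were 0.39 (initial) and 0.24 (final), against a median of 0.00 over all tested genes at each. KO libraries lay wholly above WT libraries for 4 of the 5 genes at the initial harvest, all but F11R, and for ALCAM and BCAM at the final harvest. The same held for 17.1% and 15.9% of all tested genes.

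ALCAM (ENSG00000170017.12, chromosome 3, 105366909 to 105576900), which binds itself on neighbouring cells, was the 1 member of these 5 called at both harvests. The initial WT libraries had 234, 174 and 206 CPM and the initial KO libraries 296, 287 and 273 CPM. At the final harvest WT cells had 267, 240 and 254 CPM and KO cells 351, 378 and 309 CPM. The lowest KO library was above the highest WT library at each harvest, and initial KO libraries were also above final WT cells. Its log2 fold changes were 0.48 initially (SE 0.105, 1.39-fold, edgeR adjusted p = 0.00376) and 0.45 at the final harvest (SE 0.105, 1.36-fold, adjusted p = 0.00605). ALCAM passed the threshold at both harvests under all 18 alternatives to the processing.

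MCAM (ENSG00000076706.17, chromosome 11, 119308529 to 119321521), a laminin-binding molecule first known from melanoma, differed by genotype at the initial harvest. Its WT libraries had 143, 124 and 126 CPM and its KO libraries 199, 184 and 164 CPM, without overlap. The log2 fold change was 0.48 (SE 0.118, 1.39-fold, edgeR adjusted p = 0.00878). At the final harvest WT cells had 160, 116 and 118 CPM and KO cells 143, 166 and 156 CPM, so the ranges overlapped, and the log2 fold change of 0.24 did not pass (95% interval -0.01 to 0.49, adjusted p = 0.182). The genotype difference did not itself change between harvests beyond its error (log2 difference -0.23, 95% interval -0.59 to 0.12, adjusted p = 0.61). Final WT library 1 stood above its group, and without it the final log2 fold change was 0.41 and passed (adjusted p = 0.00929). Without final WT library 2 it was 0.15, and with 1 library left out its adjusted p reached up to 0.532. CBL, on the opposite strand, overlaps MCAM by 5398 bases, and since strandedness is not given in the sources used here, reads in that stretch cannot be assigned; CBL itself had log2 fold changes of -0.17 and -0.06 (edgeR adjusted p = 0.147 and 0.66).

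BCAM (ENSG00000187244.12, chromosome 19, 44809071 to 44821421), the Lutheran blood group antigen and a receptor for laminin, was called at the final harvest only. Final WT libraries had 125, 116 and 97.7 CPM and final KO libraries 133, 189 and 150 CPM, which did not overlap although the lowest KO value was close to the highest WT value. The log2 fold change was 0.47 (SE 0.133, 1.39-fold, edgeR adjusted p = 0.0187). This call was lost without final WT library 2 (0.48, adjusted p = 0.0506), final WT library 3 (0.37, adjusted p = 0.0987) or final KO library 2 (0.32, adjusted p = 0.113). At the initial harvest WT cells had 130, 107 and 143 CPM and KO cells 182, 160 and 156 CPM, also without overlap. That log2 fold change of 0.39 (95% interval 0.11 to 0.67) fell just short of the threshold at an adjusted p of 0.05003. It passed under 9 of the 18 alternatives, DESeq2 among them (adjusted p = 0.0304); 5 of the 9 leave out 1 library, namely initial WT library 3 (0.48, adjusted p = 0.0424), final WT libraries 1 (0.38, 0.0434) or 3 (0.39, 0.0401), or final KO libraries 1 (0.39, 0.0363) or 2 (0.39, 0.024). The genotype difference did not change between harvests beyond its error (0.09, 95% interval -0.31 to 0.48), so the harvests are not shown to differ for BCAM.

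L1CAM (ENSG00000198910.14, X chromosome, 153861514 to 153886173), a neural molecule also made by some carcinomas, was not called in either comparison. Initial WT libraries had 55.8, 42.2 and 54.5 CPM against 70.5, 63.7 and 56.3 CPM in KO cells, with no overlap by a narrow margin. The log2 fold change was 0.32 (95% interval 0.06 to 0.58, edgeR adjusted p = 0.0792), and it passed without initial WT library 1 (0.40, adjusted p = 0.042). Without initial WT library 2 it fell to 0.20. Final levels were 54.4 ± 5.72 and 62.1 ± 7.58 CPM (SD, n = 3), and the log2 fold change was 0.19 (95% interval -0.07 to 0.45).

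F11R (ENSG00000158769.18, chromosome 1, 160995211 to 161021343), the tight-junction member, had the smallest fitted genotype differences of the 6. Its WT and KO means were 134 ± 8.08 and 138 ± 6.03 CPM at the initial harvest, then 148 ± 22.6 and 141 ± 9.03 CPM at the final harvest (SD, n = 3). Log2 fold changes were 0.04 (95% interval -0.17 to 0.25) and -0.07 (95% interval -0.28 to 0.14), and the ranges overlapped each time.

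**Figure D2:**
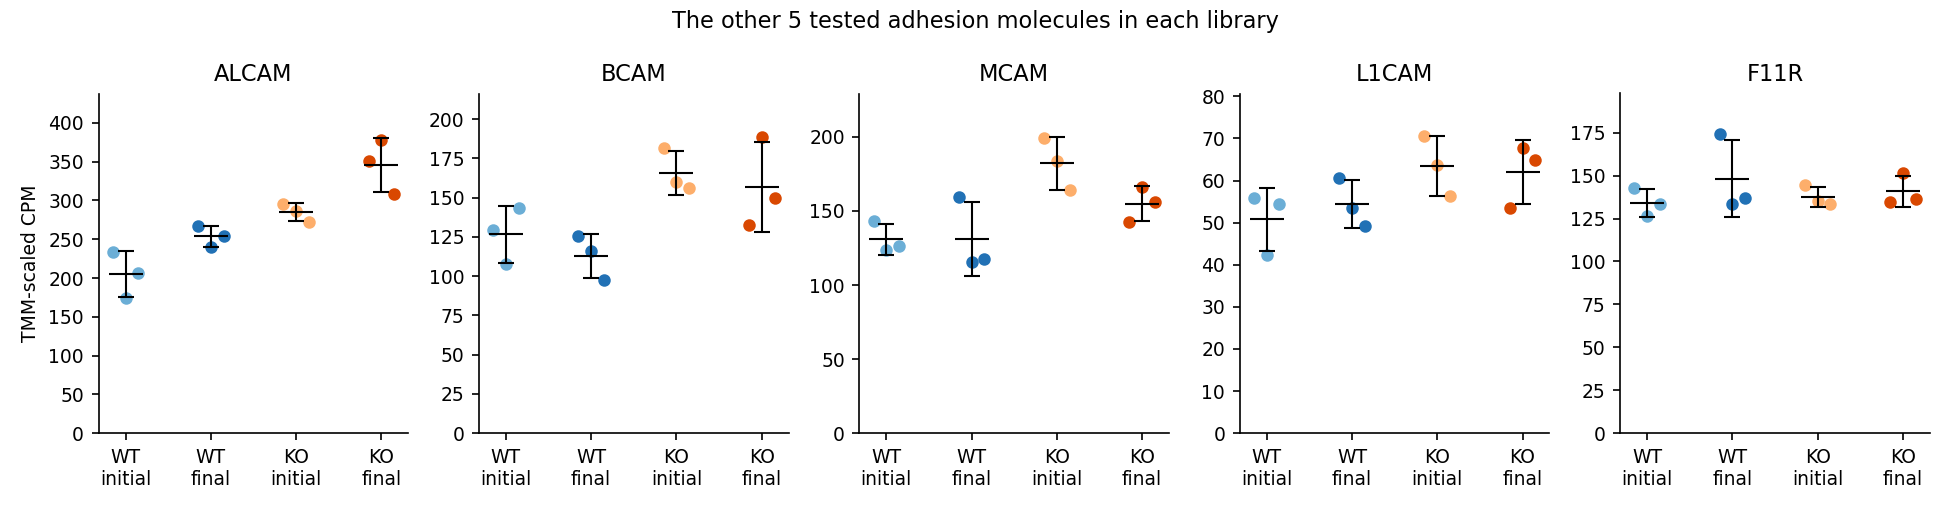
TMM-scaled CPM of ALCAM, BCAM, MCAM, L1CAM and F11R in each library, by group; points are libraries, bars are means with SD (n = 3), and each panel has its own axis from 0. ALCAM and BCAM libraries of KO cells lie above those of WT cells at each harvest, MCAM and L1CAM only at the initial harvest, and F11R at neither.

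Between harvests none of the 5 tested members other than NCAM1 was called in WT or in KO cells, where 3.05% and 0.837% of all tested genes were called higher and 3.42% and 0.64% lower. ALCAM had 205 ± 29.7 and 254 ± 13.6 CPM in WT cells, initial and final, and 285 ± 11.8 and 346 ± 34.8 CPM in KO cells (SD, n = 3); the final libraries lay above the initial ones in each genotype, but neither difference was called. Its log2 changes were 0.31 (95% interval 0.09 to 0.53, edgeR adjusted p = 0.0973) and 0.28 (95% interval 0.06 to 0.50, adjusted p = 0.213). The WT change passed without initial WT library 1 (0.42, adjusted p = 0.0252) and fell to 0.20 without initial WT library 2. In the other members log2 changes with time ran from -0.23 to 0.14. For the interaction of genotype and time, also none of the 5 was called, where 0.809% of all tested genes were called higher and 0.476% lower. NCAM1, chosen from these values, is left out of these counts.

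Within groups, the members moved together from library to library. All 6 tested members had their lowest value in library 2 of initial WT cells and in library 3 of initial KO cells, which were lowest for 43.0% and 34% of all tested genes. All 6 were highest in library 1 of final WT cells, library 1 of initial KO cells and library 2 of final KO cells, which were highest for 40.2%, 36.6% and 38.4% of all tested genes. The part of this shared variation in the differences between groups was not tested beyond leaving each library out.

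Levels of different genes were compared per length, as CPM per kb of annotated exon. In initial WT cells ALCAM, F11R and BCAM led with 28.5, 26.5 and 25.4, and neighbours in that order overlapped; MCAM followed at 17.6, L1CAM at 6.99 and NCAM1 at 1.0. In initial KO cells the order was ALCAM at 39.7, BCAM at 33.2, F11R at 27.2, MCAM at 24.6, L1CAM at 8.73 and NCAM1 at 4.4, with overlap between F11R and MCAM alone. In final KO cells NCAM1 reached 8.08 and overlapped with L1CAM at 8.54, while in final WT cells it stood at 0.318 against 7.49 for L1CAM. The summed per-kb level of the 8 genes was 106 ± 10.7, 113 ± 12.3, 138 ± 9.16 and 145 ± 13.8 CPM per kb (SD, n = 3) in initial WT cells, final WT cells, initial KO cells and final KO cells. NCAM1 made up 0.94%, 0.282%, 3.19% and 5.58% of it in the same order. ALCAM had the highest mean of the members in every group, with a mean share from 26.8% to 33.3%. Its range overlapped that of F11R in WT cells at each harvest (final WT 33.4 to 37.2 against 26.4 to 34.4 CPM per kb). In KO cells it lay apart from the next member, BCAM, at each harvest.

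**Figure D3:**
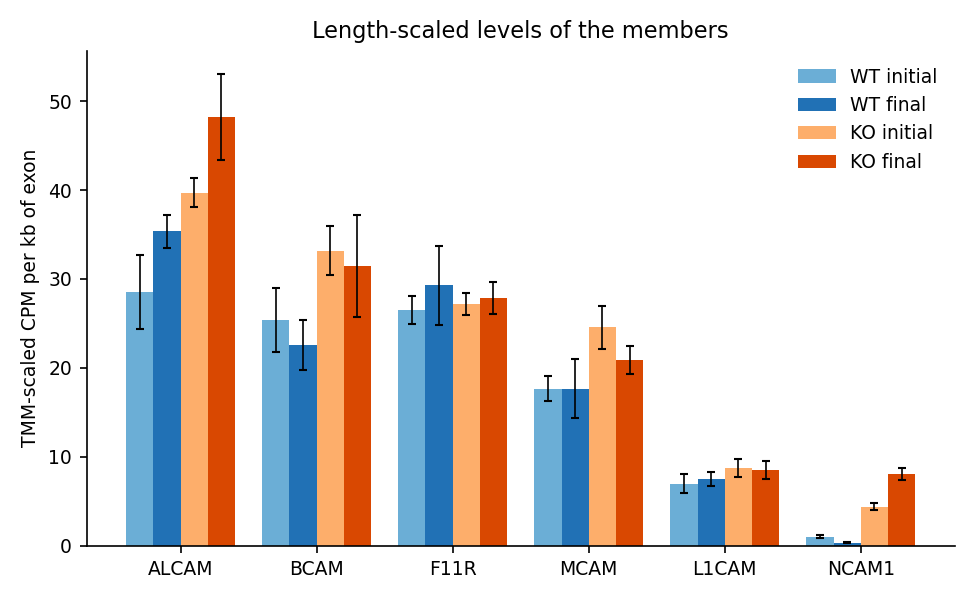
Mean TMM-scaled CPM per kb of exon of the 6 tested genes in the 4 groups, with SD (n = 3). NCAM1 is the lowest in every group and approaches L1CAM in final KO cells, at 8.08 against 8.54; F11R stays between 26.5 and 29.3 throughout.

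The genes whose log2 CPM followed NCAM1 most closely over the 12 libraries were PDGFC (Pearson r 0.991), DHRS2 (0.989), TM4SF18 (0.985), GRIN2B (0.984) and WWOX (0.983), out of 12606 genes compared. The libraries fall into 4 groups that share genotype and harvest, so these values describe the pattern of group means. PDGFC, a platelet-derived growth factor, had 29 ± 1.14, 19.8 ± 1.03, 57.4 ± 2.17 and 74.5 ± 3.09 CPM (SD, n = 3) in initial WT cells, final WT cells, initial KO cells and final KO cells. GRIN2B, an NMDA receptor subunit, followed the same order at 40.8, 25.1, 73.7 and 82.2 CPM. TM4SF18, a membrane protein, was at 3.12 and 0.951 CPM in WT cells and at 49.0 and 55.7 CPM in KO cells. Of the other members BCAM was most like NCAM1 (r 0.795), then ALCAM (0.687), MCAM (0.684), L1CAM (0.574) and F11R (-0.11).

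Some annotated genes around NCAM1 also had higher values in KO cells, given here as a description. Of 61 annotated genes overlapping it or starting within 1 Mb of it, 22 were tested. At the initial harvest 6 were called higher and 1 lower (edgeR adjusted p below 0.05), and at the final harvest 5 higher and 0 lower, beside 8.55% higher and 11.3% lower, then 8.38% and 10.2%, of all tested genes. NCAM1-AS1, DRD2 and TTC12-DT had at most 9 counts in any WT library and at least 12 in each KO library. They passed the filter through the KO groups, where they are high, so the counts of calls are no independent support. No tested neighbour was called with time in WT cells, with time in KO cells or in the interaction. Over all tested genes 6.47%, 1.48% and 1.28% were called there. With 22 genes the absence of calls lies near these shares and is no result about the neighbours. The median log2 fold change of the 22 was 0.08 and 0.20, and TTC12, the next protein-coding gene downstream, had -0.03 and 0.06.

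NCAM1-AS1, an antisense transcript inside the NCAM1 span, had log2 fold changes of 2.81 (SE 0.506, edgeR adjusted p = 0.000826) and 3.64 (SE 0.506, adjusted p = 7.41e-05). It had at most 4 counts in any WT library and 13 to 30 in KO libraries, and without strand information its reads cannot be told apart from those of NCAM1. DRD2, a dopamine receptor gene, had 2 to 8 counts in WT cells and 17 to 30 in KO cells, and was called at both harvests (2.13, SE 0.383, adjusted p = 0.000815, and 2.12, SE 0.409, adjusted p = 0.00141). HTR3A, a serotonin-gated channel subunit, had 0.487 ± 0.178 CPM in WT and 2.53 ± 0.161 CPM in KO cells at the initial harvest, then 0.833 ± 0.13 and 1.85 ± 0.331 CPM (SD, n = 3). Both of its differences were called (edgeR adjusted p = 1.8e-06 and 0.0015). ANKK1, a kinase gene beside DRD2, had log2 fold changes of 1.0 and 1.19, of which the first missed the threshold without initial KO library 1 (0.69, edgeR adjusted p = 0.0549). BCO2, a carotenoid-cleaving enzyme gene on the other side of NCAM1, had 0.58 and 0.66. TTC12-DT (1.08, adjusted p = 0.0461) and USP28 (-0.21, adjusted p = 0.0452) passed at the initial harvest only, and their calls were lost under 15 and 13 of 18 alternatives.

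**Figure D4:**
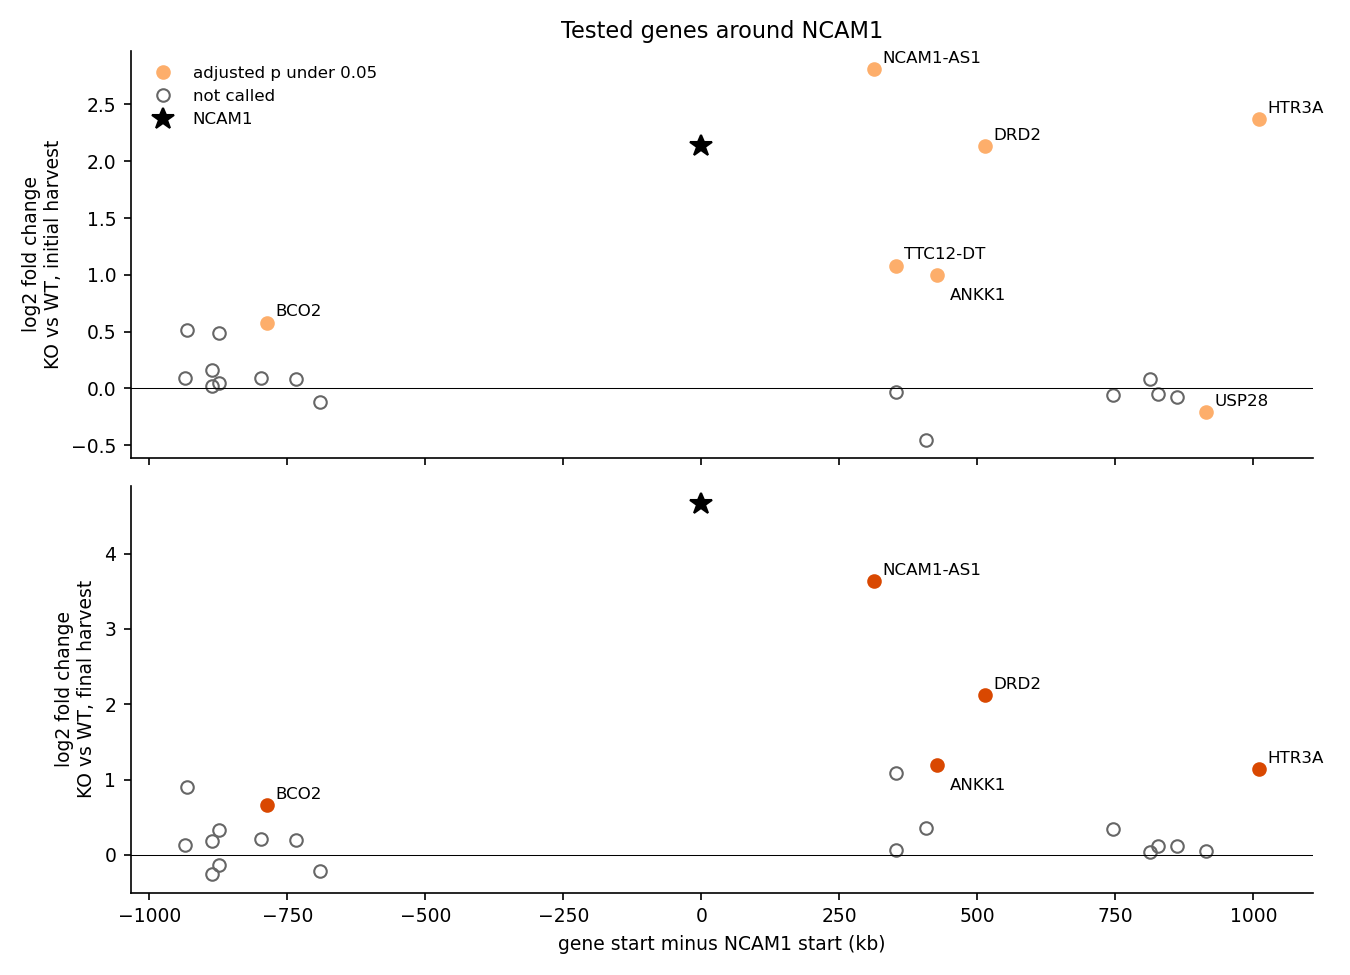
Log2 fold change, KO against WT, of the 22 tested genes around NCAM1 by distance of their start from the NCAM1 start in kb, at the initial (upper) and final (lower) harvest. Filled points are called, open points are not, and the star is NCAM1; called genes lie on both sides among genes near 0.

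Other adhesion genes of the immunoglobulin superfamily were followed as a list of 83, of which 50 were tested. The 33 untested genes never exceeded 13 counts in a library and 25 of them stayed at or below 3 counts everywhere, among them CHL1, VCAM1, THY1 and DSCAM. At the initial harvest 21 of 50 (42%) were called, 8 higher and 13 lower, and at the final harvest 19 (38%), 9 higher and 10 lower. Over all tested genes 19.9% and 18.5% were called, and the list's median log2 fold changes were -0.02 and -0.06. Called at both were 15 genes, 71.4% of the initial and 78.9% of the final calls, all in 1 direction each. The share of all tested genes called at both is not given here. The 2 comparisons share no libraries, but they share the KO clone and the fit. Between harvests 8 were called in WT cells (5 higher, 3 lower) and 1 in KO cells, against 6.47% and 1.48% of all tested genes.

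Among those higher in KO cells, SDK1, a synaptic adhesion molecule, had 0.486 ± 0.0884 and 1.59 ± 0.229 CPM at the initial harvest, and 0.201 ± 0.0355 and 1.53 ± 0.114 CPM at the final harvest (SD, n = 3). Its log2 fold changes were 1.71 (SE 0.206, edgeR adjusted p = 1.61e-05) and 2.90 (SE 0.246, adjusted p = 2.77e-07). SDK1 also fell with time in WT cells (-1.25, SE 0.293, adjusted p = 0.0163), a call lost without initial WT library 1 (-1.10, 0.0755) or final WT library 2 (-1.27, 0.0584), or with the WT libraries fitted alone (-1.26, 0.065). CEACAM1, an epithelial and immune adhesion molecule, was higher by 0.93 and 1.01, and NFASC, the neurofascin gene of the L1 family, by 0.55 and 0.64. NECTIN3, an adherens-junction molecule, was higher by 0.63 and 0.52 and rose with time, by 0.60 in WT cells (edgeR adjusted p = 0.0014) and 0.49 in KO cells (adjusted p = 0.0198). The second of these was not called once any 1 of 5 KO libraries was left out, the exception being final library 3, with adjusted p from 0.0814 to 0.107.

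ICAM1, the integrin ligand through which leukocytes attach, had its group means in the reverse order of NCAM1. It had 20.5 ± 3.05 CPM in initial WT cells, 31.6 ± 7.48 in final WT cells, 8.94 ± 0.562 in initial KO cells and 5.64 ± 0.563 in final KO cells (SD, n = 3). The log2 fold changes were -1.20 (SE 0.151, edgeR adjusted p = 2.64e-05) and -2.49 (SE 0.157, adjusted p = 1.02e-08), and the difference between harvests was itself called (-1.29, SE 0.215, adjusted p = 0.00501), the only such call in the list. AMIGO2, a leucine-rich-repeat and immunoglobulin adhesion protein, was lower by 1.56 and 1.66 on the log2 scale, with levels of 4.86 and 5.49 CPM in WT cells against 1.64 and 1.73 CPM in KO cells. KIRREL2, a relative of nephrin, was lower by 1.16 and 1.67 on that scale.

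Binding and signalling partners of these adhesion molecules formed a list of 53, of which 52 were readable in the table and 44 tested. At the initial harvest 16 (6 higher, 10 lower) and at the final harvest 19 (7 higher, 12 lower) were called, 36.4% and 43.2% of those tested, beside the 19.9% and 18.5% of all tested genes. In time comparisons 4 were called in WT cells and 2 in KO cells, 9.09% and 4.55% of those tested, beside 6.47% and 1.48% of all tested genes. Called at both harvests were 15, of which 14 kept their direction and ANK3 did not, again with no share over all tested genes beside it. ST8SIA2, ST8SIA4 and ST8SIA3, the 3 genes listed as polysialyltransferases, had at most 2 counts in any library (ST8SIA2), so their RNA was at the floor of detection. FGFR1, the growth factor receptor best known for binding NCAM1, had 171 ± 15.7, 156 ± 13.4, 153 ± 11.4 and 151 ± 22.8 CPM (SD, n = 3) from initial WT cells to final KO cells and was not called (-0.16 and -0.05). FGFR3 was higher in KO cells by 0.72 (SE 0.0942, edgeR adjusted p = 4.31e-05) and 0.36 (SE 0.0942, adjusted p = 0.0128), the second lost without final WT library 3 (0.28, 0.0844) or final KO library 2 (0.26, 0.0821). Its decrease with time in KO cells (-0.41, adjusted p = 0.0364) lost its call under 8 of 18 alternatives.

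Ankyrins link L1-family molecules to the spectrin skeleton. ANK1 had 6.13 ± 0.652 and 5.90 ± 0.413 CPM in WT cells, initial and final, and 23.9 ± 1.46 and 26.4 ± 1.66 CPM in KO cells (SD, n = 3), log2 fold changes of 1.96 (SE 0.102, edgeR adjusted p = 1.36e-09) and 2.16 (SE 0.103, adjusted p = 2.79e-10). ANK3 was lower in KO cells at the initial harvest (-0.33, adjusted p = 0.0125) and higher at the final harvest (0.49, adjusted p = 0.000638). The change of this difference between harvests was called (0.82, SE 0.122, adjusted p = 0.00172), while the initial call was lost without initial WT library 3 (-0.31, 0.0567) or initial KO library 1 (-0.31, 0.0561). PARD3, a polarity protein that binds F11R, had 65.1 ± 4.52, 49.5 ± 2.29, 59.9 ± 4.41 and 68.5 ± 5.4 CPM (SD, n = 3) from initial WT cells to final KO cells, with a called change of its genotype difference (0.59, SE 0.122, edgeR adjusted p = 0.0224). That call was lost without initial WT library 3, final WT library 2, initial KO libraries 1 or 3, or final KO libraries 1 or 3 (adjusted p from 0.0716 to 0.0929). ITGB4, an integrin of the laminin-anchoring junction, was higher at the initial harvest (0.50, SE 0.121, adjusted p = 0.00722).

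LAMA4, LAMB1 and NRP1 were lower in KO cells. Of 8 tested laminins and other ligands, 3 (initial) and 4 (final) were called lower, and none higher, beside 11.3% and 10.2% of all tested genes called lower. LAMA4, a laminin alpha chain of vessel and muscle membranes, had 4.19 ± 0.65 and 11 ± 1.49 CPM in initial and final WT cells (SD, n = 3), and each KO library had 3 counts or fewer, so LAMA4 was at least 55.2-fold and 145-fold lower against a floor of 3 counts per library. In WT cells it rose between harvests (1.39, SE 0.157, edgeR adjusted p = 5.28e-05). LAMB1, the laminin beta-1 chain, had 261 ± 39.1 and 65.6 ± 6.36 CPM at the initial harvest and 195 ± 25 and 72.4 ± 10 CPM at the final harvest (SD, n = 3), with log2 fold changes of -1.99 (SE 0.131, edgeR adjusted p = 2.11e-08) and -1.43 (SE 0.129, adjusted p = 6.06e-07). LAMA5, a main ligand of BCAM, was not called, at 0.19 (95% interval -0.15 to 0.52) and 0.40 (0.07 to 0.74, adjusted p = 0.0914). NRP1, a semaphorin co-receptor that pairs with L1CAM, had 12.1 ± 2.02 and 13.4 ± 1.76 CPM in WT cells against 1.28 ± 0.133 and 1.22 ± 0.254 CPM in KO cells, log2 fold changes of -3.23 (SE 0.172, edgeR adjusted p = 1.85e-09) and -3.45 (SE 0.173, adjusted p = 5.88e-10). ITGB1, the shared integrin beta chain, was lower by 0.51 and 0.54 on the log2 scale.

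**Figure D5:**
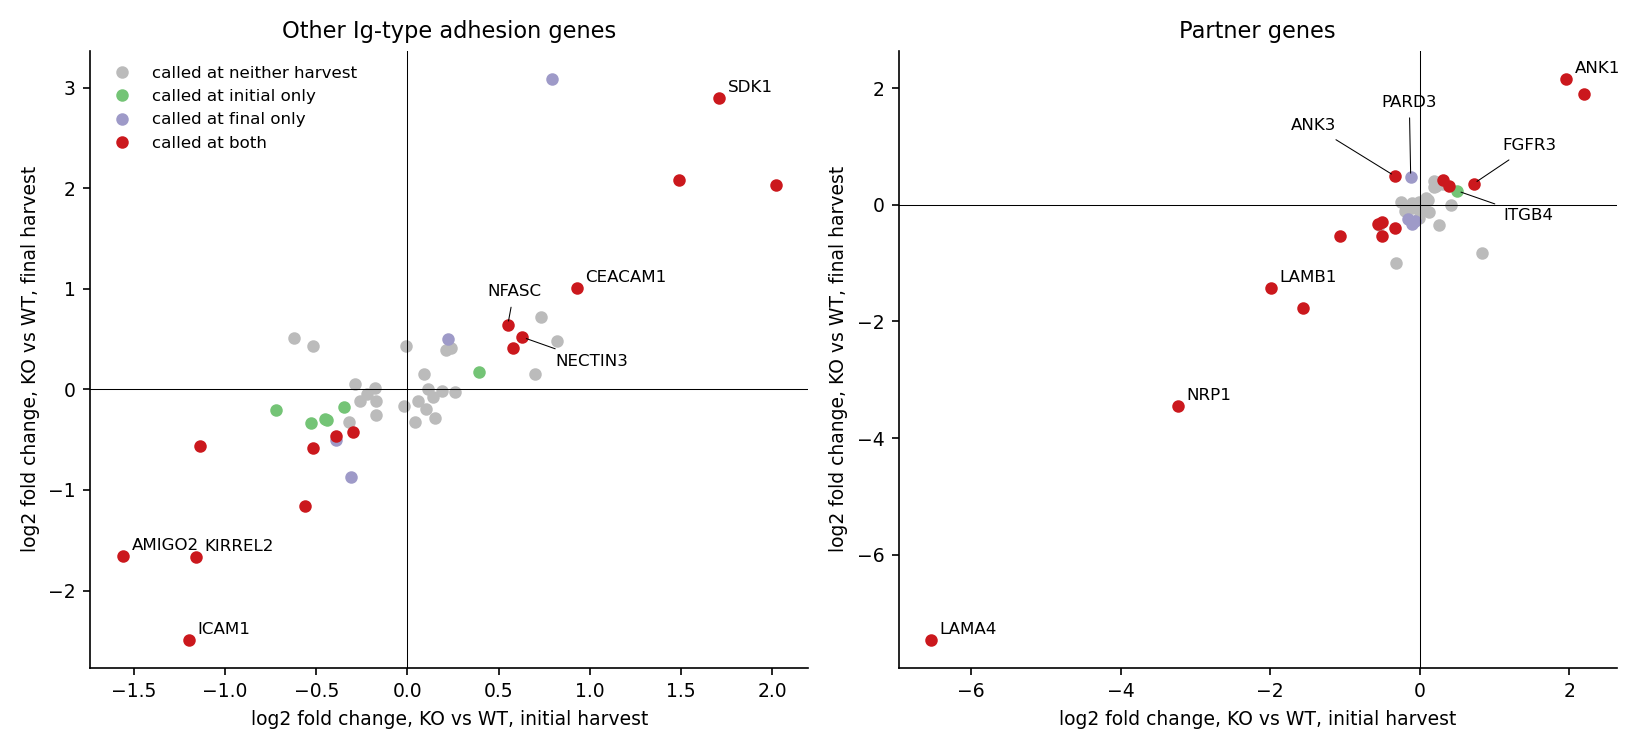
Log2 fold change, KO against WT, at the initial (x axis) and final (y axis) harvest, for the 50 other adhesion genes (left) and the 44 partner genes (right); colour shows the harvests at which a gene was called, and named genes are those with the largest called changes among genes averaging at least 0 in log2 CPM. ICAM1 and LAMA4 lie at the lower left and ANK1 at the upper right, and the fitted position of LAMA4 is no bound because its KO libraries were at the floor.

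Markers of cell types known for these molecules were read beside the results. Of 12 neural and neuroendocrine genes, CHGA was at 0 in every library, and INSM1, GAP43, STMN2 and ELAVL4 were at or below 3 counts in each. The summed level of the 12 ran from 290 to 341 CPM in initial WT cells, 237 to 248 in final WT cells, 259 to 263 in initial KO cells and 274 to 287 in final KO cells. SYT1 supplied most of it, at 197 ± 18.1, 162 ± 4.96, 133 ± 4.75 and 170 ± 8.34 CPM (SD, n = 3), so the sum did not follow the order of NCAM1. Of the 5 tested, 1 was called higher and 2 lower in KO cells at the initial harvest, and 2 higher and 1 lower at the final harvest. Over all tested genes 8.55% were called higher and 11.3% lower initially, then 8.38% and 10.2% at the final harvest. SYP, a synaptic vesicle gene, was higher by 0.98 and 1.02. SYT1 was 1 of the 2 called lower at the initial harvest (-0.56). The gene called lower at the final harvest was another one, not named here, so SYP does not stand for the list. Of 7 leukocyte and natural killer genes, CD3E and NCR1 were at 0, PTPRC and CD2 at or below 3 counts, and the summed level stayed between 0.701 and 1.43 CPM in all libraries. For 8 muscle and mesenchyme genes the sum was 66.5 to 77.4 and 72.4 to 89.4 CPM in WT cells, and 57.9 to 65.5 and 60.0 to 74.7 CPM in KO cells, with MYOD1 at 0 and MYOG and COL1A2 at or below 3 counts. Of the 5 tested, 3 were called higher and 1 lower in KO cells initially, and 3 higher and 2 lower at the final harvest. These counts stand beside the same shares of all tested genes. VIM, 1 of the 3 called higher, was higher by 1.20 and 0.96, while the summed level of the 8 was lower in initial KO than in initial WT cells. DES was 1 of the 2 called lower at the final harvest (-0.61). The 1 called lower at the initial harvest was another gene, not named here, so VIM does not stand for the list. The 4 endothelial genes summed to 1.95 to 3.46 CPM over all libraries.

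The 7 epithelial genes, set beside the colon origin of the line, summed to 2150 to 2550 and 2380 to 2520 CPM in WT cells and 1980 to 2150 and 1800 to 2050 CPM in KO cells. VIL1, the villin gene of mature enterocytes, had at most 12 counts in a library and was not tested. Of the 6 tested, 2 (initial) and 4 (final) were called lower in KO cells, none higher, beside the same 11.3% and 10.2% of all tested genes. CDH1, the E-cadherin gene, had 236 ± 43 and 117 ± 12.3 CPM at the initial harvest and 219 ± 35.6 and 162 ± 13.6 CPM at the final harvest (SD, n = 3), log2 fold changes of -1.01 (SE 0.134, edgeR adjusted p = 4.77e-05) and -0.44 (SE 0.133, adjusted p = 0.0291). The final call was lost without final WT library 1 (-0.30, 0.13), final KO library 1 (-0.41, 0.0955) or final KO library 3 (-0.42, 0.0807), or without TMM factors (-0.37, 0.0588). EPCAM, another epithelial adhesion molecule, was lower by 0.36 and 0.31 on the log2 scale, calls lost under 4 and 10 of 18 alternatives. The part of these marker changes in the NCAM1 values was not tested.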

How the data were processed

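The deposited values are raw counts, a column for each library, without normalization by the authors, laid out as featureCounts writes it, per the file headers. STAR, Subread, featureCounts and hg38 are named in the submitters' processing notes; strandedness and the treatment of multi-mapping reads are not given in the sources used here. All 37318 gene IDs that GENCODE 29 holds in the same version have identical spans, so coordinates are GRCh38. ANK2, broken over 5 lines, was left out.

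Genes passing filterByExpr were scaled with TMM and modelled in R 4.3.3 with edgeR 4.0.16 and limma 3.58.1, in a single robust quasi-likelihood fit with 4 group means. Of 5 comparisons each was adjusted over 18289 genes by Benjamini-Hochberg and called at 0.05; DESeq2 1.42.0 was an alternative. The method was tested on simulated data. A gene with 3 counts or fewer in each library of a group was at the floor, which, like intervals for single counts, covers counting error only. Exon lengths are those deposited with the counts.

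Members and lists were chosen with earlier results of these data known. From each list were named, per genotype comparison and direction, the 3 largest called changes at a mean log2 CPM of at least 0, and 1 per other comparison and direction; also genes within 1 Mb of NCAM1, and the 5 most correlated with it (mean log2 CPM of at least 1, prior count 2). EPCAM, CDH1, VIM, SYP, SYT1, VIL1, ITGB1, LAMA5, FGFR1, CHL1, VCAM1, THY1 and DSCAM, outside that rule, were picked from their lists afterwards as known genes.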

Additional observations from a re-analysis of the deposited data

Results flagged for a closer look

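Among the members, lists and markers, 6 genes are listed here for a change between harvests in the difference between KO and WT. NCAM1 is described without a test, and the others were called by edgeR's test of that change itself. Over all tested genes 1.28% were called in that test, beside 1 of 50 tested other adhesion genes and 2 of 44 tested partner genes. Of the markers, 1 of 5 tested neural genes and 1 of 5 tested muscle and mesenchyme genes were called, and none in the other marker lists. Each value is the log2 fold change at the final harvest minus that at the initial harvest. The value was 2.53 for NCAM1 (SE 0.176), which was chosen for it. It was -1.29 for ICAM1 (SE 0.215, adjusted p = 0.00501) and 0.82 for ANK3 (SE 0.122, adjusted p = 0.00172). PARD3 had 0.59 (SE 0.122, adjusted p = 0.0224) and SYT1, a synaptotagmin gene among the neural markers, 0.64 (SE 0.115, adjusted p = 0.00917). DES, the desmin gene among the muscle markers, had -0.78 (SE 0.177, adjusted p = 0.0401), from 3.83 ± 0.437, 5.01 ± 0.482, 4.29 ± 0.14 and 3.27 ± 0.151 CPM (SD, n = 3) in initial WT cells, final WT, initial KO and final KO. The calls of ICAM1, ANK3 and SYT1 held under every alternative run, that of PARD3 was lost without any 1 of 6 libraries among 17 alternatives, and that of DES under 11 of 17.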

How the results depend on the processing

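Results were recomputed with library totals in place of TMM factors, DESeq2, no filter on low counts, no robust dispersions, a replicate block, the libraries compared alone, and each library left out; for genes outside the 8 members and MTHFD2 this was added after seeing the data. MTHFD2 kept direction and side of the threshold, and NCAM1 its direction, throughout. Without the filter, 5 members, NCAM1 included, were called at the initial harvest. Calls among other adhesion genes with time in KO cells numbered 2 without TMM factors, 3 with DESeq2, 5 without the filter, 2 without robust dispersions, 3 with the replicate block and 5 with the libraries compared alone, against 1; in the interaction they numbered 2 without TMM factors, 4 with DESeq2 and 3 without the filter, against 1; with time in WT cells, 3 with the libraries compared alone, against 8. Partner genes numbered 2 with time in WT cells with the libraries compared alone, against 4, 1 with time in KO cells with the replicate block, against 2, and 4 in the interaction without the filter, against 2. The cause of these shifts was not tested.

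Leaving out 1 library gave 3 to 4, 2 to 4, 1 to 2, 1 to 1 and 1 to 1 called members in the initial, final, WT time, KO time and interaction comparisons. These counts include NCAM1, chosen from these values. Without it, 0 members were called in the time and interaction comparisons with all libraries. The ranges were 16 to 27, 17 to 21, 4 to 9, 0 to 4 and 1 to 3 for other adhesion genes, and 13 to 17, 14 to 21, 2 to 5, 0 to 2 and 1 to 3 for partner genes. With time in KO cells, 0 came without any 1 of the initial KO libraries or final KO library 1 in both lists, and for other adhesion genes also without final KO library 2; 2 partner genes with time in WT cells came without final WT library 2, and 2 members without initial WT library 1. Signs turned in uncalled values near 0. The ALCAM interaction was 0.05 and MCAM with time in WT cells -0.09 without TMM factors; the latter was also -0.00 without the filter, -0.01 with the replicate block and -0.00 with the libraries compared alone. Leaving out 1 library gave MCAM -0.17 to 0.09 there, and L1CAM -0.02 to 0.17 in WT cells and -0.12 to 0.05 in KO cells with time. It gave ALCAM -0.14 to 0.07 and BCAM -0.07 to 0.19 in the interaction, and BCAM -0.24 to 0.02 with time in KO cells. F11R ran from -0.01 to 0.08, -0.15 to 0.06, -0.03 to 0.06 and -0.20 to 0.03 in the initial, final, KO time and interaction comparisons. Replicate numbers did not pair the libraries: deviations of same-numbered libraries correlated from -0.358 to 0.238, and 6 of 18 pairs exceeded 0.1. The replicate block changed no member's call; it ended those of FGFR3 with time in KO cells, SYT1 with time in each genotype, TTC12-DT and USP28. Of 1237 values recomputed for named genes outside the members, none changed sign and 122 lost their call, most of them for SYT1 with time, TTC12-DT, EPCAM, USP28, ANK3, DES and FGFR3. ANK3 with time in KO cells lost it without 4 of the KO libraries. Genes at the floor, such as NCAM2, limit what depth can show.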
